A study of Homo sapiens with 12 samples.

Results

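The regions described are the H3K27ac-marked stretches of human chromosome 6 in Caki-1 renal carcinoma cells and in a cabozantinib-resistant derivative of them. Peaks of the 4 H3K27ac libraries that overlapped by at least 1 bp were merged, and a merged region belonged to chromosome 6 if it lay there in hg19. That gave 4421 of 89076 merged regions, 2806 of which started at or above 41 Mb and 1615 below it. A region counted as gained when both resistant libraries and no parental library had a peak in it, as lost when the reverse held, and as shared when all 4 libraries had one. The split at 41 Mb was chosen by the gained, lost and shared patterns and peak scores themselves, so every count of regions, peaks and scores is given as a description without a test. RNA from the same lines, which the choice of regions did not use, was the readout that was tested.

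Caki-1 is a long-established line of human renal cell carcinoma, and cabozantinib is a drug that blocks MET, AXL, the VEGF receptors and other kinases. The resistant cells, here CaboR, were selected in McCoy's 5A medium with 5 µM cabozantinib raised to 20 µM over 2 months, and were then kept in 10 µM. The parental cells, here Caki, were grown in RPMI 1640, so drug, medium and selection history differ together and their effects cannot be told apart. Of 12 samples, 2 H3K27ac and 2 RNA libraries per line were used, and the 4 inputs were not analysed here. CaboR is a single resistant derivative, and the labels do not say that replicates were separate cultures, so p-values measure the spread between these libraries.

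H3K27ac is an acetylation of a histone tail found at active promoters and enhancers, and a called peak is a stretch where reads from the immunoprecipitation stand above their surroundings. The short arm of chromosome 6 carries forkhead transcription factor genes near its tip, a large histone gene cluster and the major histocompatibility complex (MHC), whose class I and II genes encode the proteins that present antigens to T cells. Further along lie VEGFA, which encodes an angiogenic growth factor prominent in clear cell renal cancer, and on the long arm the vanin, connexin, laminin and thrombospondin genes described below. The MHC class I genes are long studied in tumours because their products are often reduced there.

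Promoter sequences are shown for 5 genes of the chromosome whose RNA differed between the lines, to place the neighbouring forkhead genes of the short arm beside the long-arm genes GJA1 and PDE10A. Each is the 250 bases before the gene's start on its own strand, 5′ to 3′, from RefSeq in GRCh38.p14, a different build from that of the peaks. Capitals mark matches on either strand to 4 promoter motifs: the TATA box as TATAAA, an AP-1 motif as TGANTCA, the CCAAT box and the GC box as GGGCGG. No base lay in matches of 2 motifs.
FOXQ1, chr6:1311848-1312097, plus strand: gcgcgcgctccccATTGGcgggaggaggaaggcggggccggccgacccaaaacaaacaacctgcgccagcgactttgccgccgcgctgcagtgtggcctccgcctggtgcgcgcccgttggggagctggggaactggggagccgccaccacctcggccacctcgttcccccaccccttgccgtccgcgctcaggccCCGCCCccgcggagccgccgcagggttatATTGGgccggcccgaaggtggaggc
FOXF2, chr6:1389326-1389575, plus strand: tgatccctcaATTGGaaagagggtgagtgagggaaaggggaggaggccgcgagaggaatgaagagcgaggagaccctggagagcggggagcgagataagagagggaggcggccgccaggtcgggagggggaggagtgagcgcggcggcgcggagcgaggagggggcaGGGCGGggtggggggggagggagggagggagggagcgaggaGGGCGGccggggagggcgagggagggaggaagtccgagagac
FOXC1, chr6:1609665-1609914, plus strand: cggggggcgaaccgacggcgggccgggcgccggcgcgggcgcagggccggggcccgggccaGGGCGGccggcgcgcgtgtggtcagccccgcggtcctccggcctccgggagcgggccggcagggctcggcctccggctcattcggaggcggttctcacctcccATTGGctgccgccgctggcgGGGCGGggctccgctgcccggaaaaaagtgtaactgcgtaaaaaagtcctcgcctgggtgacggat
GJA1, chr6:121435396-121435645, plus strand: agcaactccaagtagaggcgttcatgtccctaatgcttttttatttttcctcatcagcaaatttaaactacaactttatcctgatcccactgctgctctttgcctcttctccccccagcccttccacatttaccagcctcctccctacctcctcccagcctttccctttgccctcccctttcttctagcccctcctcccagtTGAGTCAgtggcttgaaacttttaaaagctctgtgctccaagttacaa
PDE10A, chr6:165663242-165663491, minus strand: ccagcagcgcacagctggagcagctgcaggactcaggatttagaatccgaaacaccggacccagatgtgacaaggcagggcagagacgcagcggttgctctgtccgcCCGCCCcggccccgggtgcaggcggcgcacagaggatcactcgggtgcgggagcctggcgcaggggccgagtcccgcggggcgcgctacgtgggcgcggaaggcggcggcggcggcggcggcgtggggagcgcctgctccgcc

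The 3 forkhead promoters had 29, 20 and 37 CpG dinucleotides in the order printed, and each held a CCAAT box and a GC box. The CCAAT box occurred in 33.0% and the GC box in 42.3% of 27305 RefSeq promoters of this length. The GJA1 window had 1 CpG against a median of 11 over all promoters, and was the single window of the 5 with the AP-1 motif, which 6.60% of promoters hold. PDE10A had 31 CpG and a GC box. The TATA box, found in 11.1% of promoters, was in none of the 5 windows. These matches describe letters in the windows, and no hg19 annotation was at hand to lay peaks over them.

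The H3K27ac lists held 52367 and 52856 peaks in CaboR and 54810 and 57975 in Caki, each with a score that has no stated unit and a minimum just above 2. Median peak width differed more between replicates than between lines, at 604 and 1041 bp in CaboR and 674 and 924 bp in Caki. The read depth behind the peak lists is unknown. RNA library totals were 14664723 and 12851393 estimated counts in CaboR and 10605113 and 10584083 in Caki. The CaboR pair differed more than the Caki pair, with a chi-square per gene of 48.4 in CaboR and 1.95 in Caki. Kidney epithelial markers were present in all 4 RNA libraries, among them PAX8 at 133 to 210 TPM and the keratin KRT8 at 229 to 339 TPM, while PAX2 was at 0 and CA9 at 0 to 0.90 TPM. Blood markers were at 0 to 0.31 TPM (PTPRC, CD3E, CD79A, HBB) and the endothelial markers VWF and CDH5 at 0 to 0.03 TPM. Of the fibroblast markers, COL1A1 was at 1.32 to 6.12 TPM, PDGFRB at 4.29 to 6.35 TPM and PDGFRA at 0 to 0.07 TPM. Their part in the results was not tested.

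Chromosome 6 carried fewer H3K27ac peaks in CaboR, and the shortfall lay at and above 41 Mb. The chromosome held 1920 and 2464 peaks in CaboR, against 2993 and 3168 in Caki. These were 3.67% and 4.66% of all peaks in the CaboR lists and 5.46% of each Caki list. At or above 41 Mb there were 943 and 1395 peaks in CaboR and 1923 and 2123 in Caki, so both CaboR libraries lay below both Caki libraries. The ratio of mean peak numbers, CaboR over Caki, was 0.578 there. Below 41 Mb the peaks numbered 977 and 1069 in CaboR and 1070 and 1045 in Caki, a ratio of 0.967, and the lines overlapped.

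Peak density showed the same division. At or above 41 Mb the density was 7.25 and 10.7 peaks per Mb in CaboR and 14.8 and 16.3 in Caki. Below 41 Mb it was 23.8 and 26.1 in CaboR and 26.1 and 25.5 in Caki. The segment below 41 Mb was thus the more densely marked one in both lines. Peaks at or above 41 Mb covered 657 and 1988 kb in CaboR and 1776 and 3020 kb in Caki. Covered length differed between replicates as well as between lines. The lines overlapped, since CaboR replicate 2 covered more than Caki replicate 1.

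**Figure D1:**
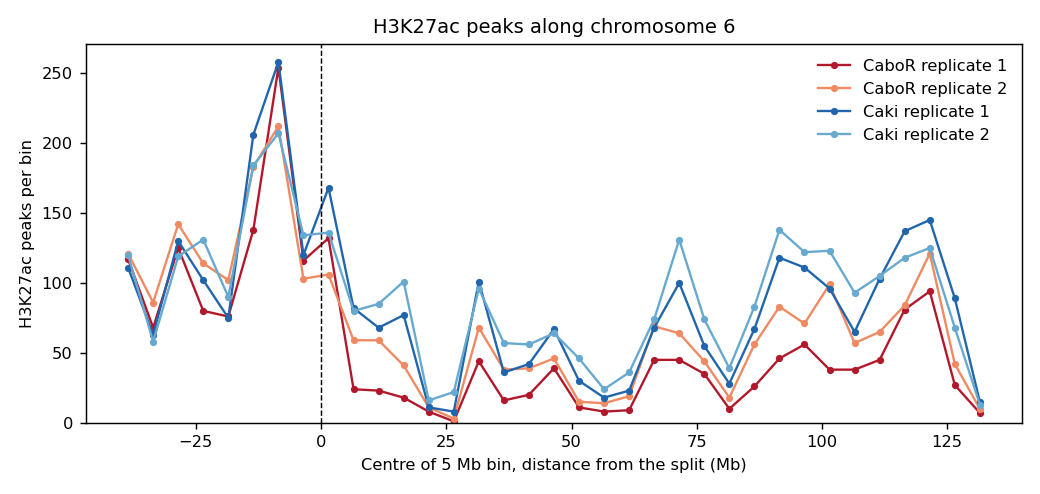
H3K27ac peak numbers in 5 Mb bins along chromosome 6 for each of the 4 libraries, by the distance of the bin's centre from the 41 Mb split in Mb, with the split as a dashed line. Of 8 bins below 40 Mb, both CaboR libraries lie below both Caki libraries in 2 and above them in 1, and from 45 Mb on they lie below in 21 of 25 bins with at least 20 regions.

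In 5 Mb bins with at least 20 regions, both CaboR libraries had fewer peaks than both Caki libraries in 21 of 25 bins from 45 Mb on and more in 0. The bin from 40 to 45 Mb was also lower. Below 40 Mb, 2 of 8 bins were lower and 1 was higher. Over the whole genome, 31.4% of 563 bins were lower and 13.3% were higher in CaboR. Outside chromosome 6, 153 of 529 bins (28.9%) were lower. The split was set on the same peaks, so nothing is read from these shares.

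The size of the shortfall varied along the chromosome. The bin from 65 Mb held 1 and 3 peaks in CaboR and 8 and 22 in Caki. The bin from 55 Mb held 18 and 41 in CaboR and 77 and 101 in Caki, and that from 90 Mb 11 and 15 in CaboR and 30 and 46 in Caki. It was smallest from 105 Mb, with 45 and 69 peaks in CaboR and 68 and 74 in Caki, a bin in which the lines overlapped. From 160 Mb, 94 and 121 peaks in CaboR stood against 145 and 125 in Caki.

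The change was not a sharp step at 41 Mb. The Mb from 41 held 32 and 21 peaks in CaboR and 34 and 21 in Caki, and the Mb from 44 held 37 and 22 in CaboR and 37 and 27 in Caki. The Mb from 42 held 17 and 27 in CaboR and 41 and 43 in Caki. From 45 Mb the numbers were 10 and 18 in CaboR and 31 and 24 in Caki, and from 47 Mb they were 7 and 19 in CaboR and 28 and 36 in Caki. The last region below the split with a peak in all libraries, chr6:40962998-40968208, had scores of 11.3 and 16.5 in CaboR and 14.1 and 11.1 in Caki. The first one above it, chr6:41006977-41009683, had 21 and 36.9 in CaboR and 14.5 and 3.30 in Caki. Between the first of these and the split lay chr6:40979704-40980047, with a peak in CaboR replicate 1 alone, and chr6:40996012-40996529, with a peak in Caki replicate 1 alone.

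Lost regions outnumbered gained ones at or above 41 Mb, and below it the numbers were close. At or above 41 Mb, 232 regions (8.27%) were lost, 26 (0.93%) gained and 479 (17.1%) shared. Below 41 Mb, 54 (3.34%) were lost, 64 (3.96%) gained and 404 (25%) shared. In the rest of the genome, 3210 regions (3.79%) were lost, 2965 (3.50%) gained and 18689 (22.1%) shared, and over all merged regions the shares were 3.92% lost, 3.43% gained and 22.0% shared. These values chose the split and stand as a description.

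Among 23 chromosomes, chromosome 6 as a whole had the highest share of lost regions, 6.47%, and the lowest share of gained ones, 2.04%. Chromosomes 12 and 10 came next, with 5.95% and 5.66% lost and 2.32% gained in each. The chromosome 6 segment below 41 Mb, taken alone, was below the genome share for lost regions and above it for gained ones.

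The counts depend on how many libraries define a class. With 1 library left out, its line was judged by its other library alone. That rule is looser, so larger counts of lost and gained regions follow from it. Without CaboR replicate 1, 258 regions were lost and 210 gained at or above 41 Mb, and 65 were lost and 291 gained below it. Without CaboR replicate 2, 596 were lost and 159 gained at or above the split, and 190 were lost and 252 gained below it. Without Caki replicate 1 the numbers were 1004 lost and 50 gained above, and 263 lost and 107 gained below. Without Caki replicate 2 they were 707 lost and 50 gained above, and 210 lost and 102 gained below. Lost regions outnumbered gained ones at or above the split in each of these settings, whereas below it the larger class depended on the library.

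**Figure D2:**
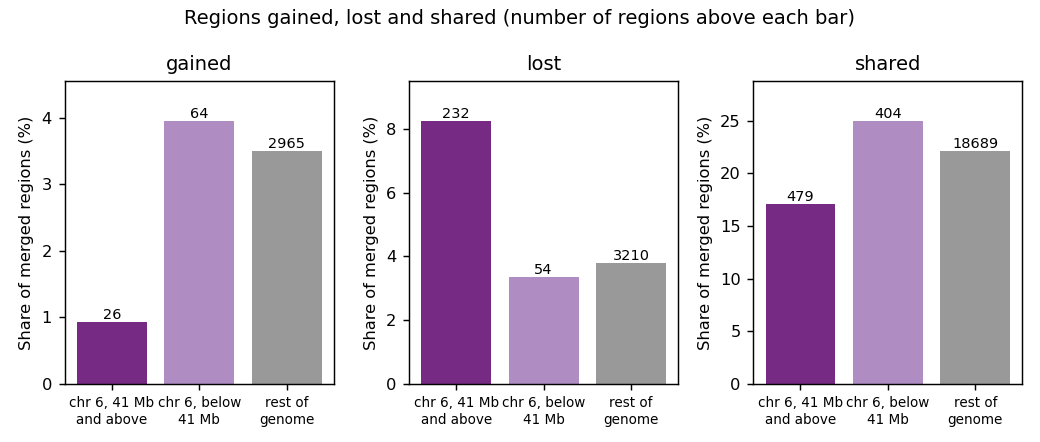
Share of merged regions (percent) that were lost, gained or shared on chromosome 6 at or above 41 Mb, on chromosome 6 below 41 Mb and in the rest of the genome. Lost regions made up 8.27% of those at or above the split, 3.34% of those below it and 3.79% of the rest.

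Regions marked in 1 CaboR library added to those marked in none. Of 1079 regions with a peak in both Caki libraries at or above 41 Mb, 479 (44.4%) had a peak in both CaboR libraries, 368 (34.1%) in 1 and 232 (21.5%) in none. Below 41 Mb, 404 of 584 (69.2%) were in both CaboR libraries and 54 (9.25%) in none. In the rest of the genome 67.6% were in both and 11.6% in none, and over the whole genome 11.9% were in none. CaboR replicate 1 lacked 53.3% of the Caki regions at or above the split and CaboR replicate 2 lacked 23.8%. Both values exceeded those of the same library elsewhere, 29.3% and 14.7% in the rest of the genome.

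In the other direction, regions marked in CaboR at or above the split were nearly all marked in Caki. Of 547 regions with a peak in both CaboR libraries there, 87.6% were in both Caki libraries and 26 (4.75%) in none. Below 41 Mb, 74.3% of 544 were in both and 64 (11.8%) in none. The rest of the genome gave 73.1% and 11.6%, and the whole genome 11.5% in none.

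Strong Caki regions were kept more often than weak ones. Regions in both Caki libraries were ranked over the genome by their mean score percentile in the Caki lists and divided into quartiles from low to high. At or above 41 Mb, the share also marked in both CaboR libraries was 13.9%, 29.5%, 57.6% and 91.0% over the 4 quartiles. Below 41 Mb it was 41.8%, 56.0%, 82.3% and 99.2%, and in the rest of the genome 33.52%, 57.1%, 82.3% and 96.9%. The segments differed most in the weak and middle quartiles. In the lowest quartile at or above the split, 139 of 273 regions (50.9%) had no peak in CaboR, against 21.9% below it and 32.1% in the rest of the genome. Ranked by the CaboR lists, regions in both CaboR libraries at or above the split were in both Caki libraries in 66.4%, 88.0%, 98.8% and 100% of cases from the lowest to the highest quartile. In the rest of the genome these shares were 38.5%, 66.7%, 88.3% and 98.6%.

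**Figure D3:**
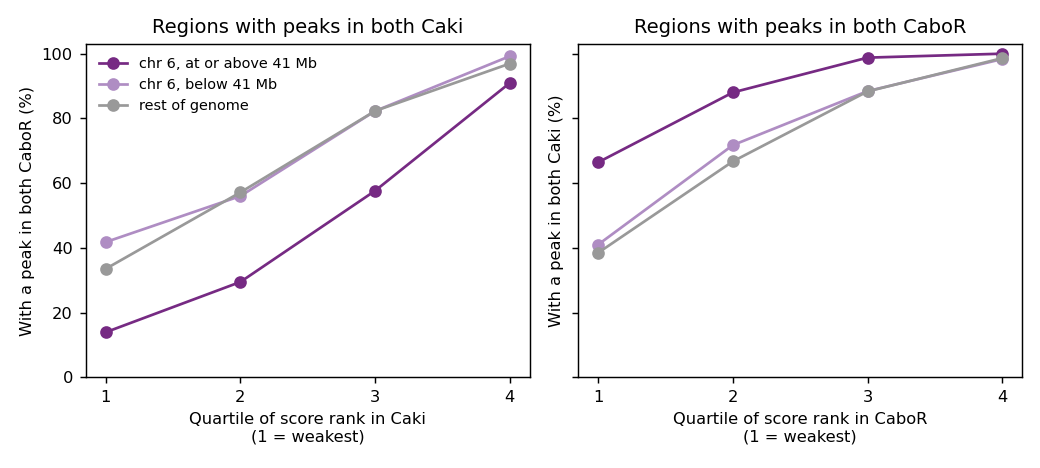
Share of regions (percent) with a peak in both libraries of one line that also had one in both libraries of the other line, by genome-wide quartile of the mean score percentile in the first line's lists, for the 2 chromosome 6 segments and the rest of the genome. At or above 41 Mb the Caki regions kept in both CaboR libraries ranged from 13.9% in the lowest to 91.0% in the highest quartile.

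Scores are the authors' own and were compared within a list only. The median score at or above 41 Mb was 6.44 and 7.45 in CaboR and 6.48 and 6.10 in Caki. The medians of the whole lists were 6.31 and 7.48 in CaboR and 6.70 and 6.29 in Caki. The typical peak of the segment thus scored close to that of its list in both lines. Strong peaks were less frequent, since 6.26% and 4.95% of CaboR peaks and 7.75% and 6.97% of Caki peaks at or above the split were in the top 10% of their list. Below it these shares were 8.50% and 9.82% in CaboR and 8.88% and 8.42% in Caki.

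Regions shared by all 4 libraries ranked lower within the CaboR lists at or above the split. Their median list percentile was 68.3 and 73.9 in CaboR and 80.8 and 82.2 in Caki. Below 41 Mb it was 73.1 and 79.8 in CaboR and 75.3 and 78.8 in Caki, where the lines overlapped. In the rest of the genome it was 76.3 and 80.2 in CaboR and 78.4 and 80.0 in Caki. Shared regions were wide, with a median of 2429 bp at or above the split, while lost ones had a median of 1092.5 bp and gained ones of 783 bp.

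The lost region with the strongest Caki peaks was chr6:166073218-166075878 near the end of the long arm, 2661 bp wide, with scores of 29.4 and 30.0 in Caki and no CaboR peak. The wide lost region chr6:165982864-165988015, with 14.1 and 14.6 in Caki, and its neighbour chr6:165988060-165992152, with 10.5 and 18.1, lay less than 1 Mb from it. These are part of a run at chr6:165982864-166131093, where 8 of 17 regions were lost and 0 were gained or shared. Elsewhere on the long arm chr6:93467046-93467952 had scores of 16.0 and 16.2 in Caki, and on the short arm chr6:42018136-42018922 had 16.0 and 12.5. The longest run of lost regions no more than 250 kb apart, chr6:56389360-57041062, held 11 lost, 9 shared and 0 gained among 69 regions.

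Gained regions at or above the split were few and weak beside these. The 3 with the highest weaker scores lay close together, at chr6:148742081-148743429 (9.24 and 8.94 in CaboR), chr6:148744042-148744441 (15.0 and 7.45) and chr6:148757140-148757622 (6.44 and 8.94). Below the split the strongest gained region was chr6:11744162-11745853, with 13.4 and 14.3 in CaboR and no Caki peak. The strongest lost one there was chr6:26044264-26046884, with 9.77 and 13.3 in Caki.

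The widest shared region of each segment was marked strongly in both lines. At or above 41 Mb it was chr6:72100744-72144767, 44024 bp wide, with scores of 43.3 and 60.9 in CaboR and 93.2 and 42.0 in Caki. Below 41 Mb it was chr6:30714565-30757328 in the MHC interval, 42764 bp wide, with 44.0 and 85.6 in CaboR and 38.9 and 69.3 in Caki.

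The MHC interval, taken here as the stretch within 2.5 Mb of 31 Mb, was marked to a like extent in both lines. It held 284 regions, of which 11 were lost, 13 gained and 95 shared. Its peaks numbered 216 and 186 in CaboR and 224 and 187 in Caki, so the lines overlapped. Most of the histone gene cluster lies between 26 Mb and the start of that interval. Of 162 regions there, 4 (2.47%) were lost, 2 (1.23%) gained and 56 (34.6%) shared.

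RNA of the genes on the same chromosome was then compared. The files hold no hg19 annotation, so genes were put in order along the chromosome, those up to DAAM2 counted as below the split and those from FOXP4 on as at or above it. Of 646 chromosome 6 genes tested among 12792, 370 lay at or above the split, 272 below it and 4 between. No gene was assigned to a single region. In bulk RNA, fewer cells expressing a gene and less RNA per cell cannot be told apart.

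At or above the split, 24 genes fell, 3 rose and 343 did not pass (edgeR quasi-likelihood test, adjusted p under 0.05 over all genes). That is 6.49% lower and 0.81% higher, beside 3.41% lower and 2.96% higher over all genes tested. Below the split 5 fell and 5 rose. Without Caki replicate 1 the block at or above the split had 13 lower and 3 higher, and without Caki replicate 2 it had 14 and 2. Without CaboR replicate 1 it had 168 lower and 25 higher, and without CaboR replicate 2 it had 119 and 17. For the block below the split these settings gave 4 lower and 2 higher, 3 and 1, 37 and 96, and 30 and 38 in the same order. The whole table moved with them. A line left with 1 library adds no spread, so each of these fits took its spread from the other line's pair. Those counts are therefore no support for a call.

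Most genes of the block at or above the split were a little lower in CaboR whether or not they passed the test. The median log2 fold change, CaboR over Caki, was -0.31 over the 370 genes, with quartiles of -0.58 and 0.00. It was 0.14 over the 272 genes below the split and 0.02 over all genes tested. Both CaboR libraries lay below both Caki libraries for 195 genes (52.7%) at or above the split and above both for 37 (10.0%), beside 29.7% below and 30.9% above over all genes tested. In the block below the split these were 53 (19.5%) and 108 (39.7%). Each CaboR library showed the shift on its own, with medians of -0.25 and -0.39 at or above the split and 0.05 and 0.19 below it, as log2(CPM + 0.5) relative to the Caki mean. Medians of the other chromosomes ran from -0.24 on chromosome 10 to 0.21 on chromosome 22. The share of genes with both CaboR libraries below both Caki libraries was 52.1% on chromosome 10, near that of the block. It was 44.7% on chromosome 12, 42.5% on chromosome 2 and 41.5% on chromosome 3, and the lowest was 15.4% on chromosome 16.

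The shift was seen in each window that lay wholly within the block. In windows of 25 consecutive genes, the median was negative in 13 of 13 windows at or above the split, from -0.55 in the window EEF1A1 to ME1 to -0.06 in the window MAN1A1 to EPB41L2. The first genes of the block, up to RRP36, shared a window with NFYA, which lies between the blocks. That window, with a median of -0.10, is not among the 13. The last genes of the block, after SLC22A3, fell in no window. Below the split 2 of 10 windows were negative, and the highest, LSM2 to PBX2 in the MHC, was 0.33. On other chromosomes 211 of 468 windows (45.1%) were negative. Whether RNA and H3K27ac of single genes moved together was not tested.

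**Figure D4:**
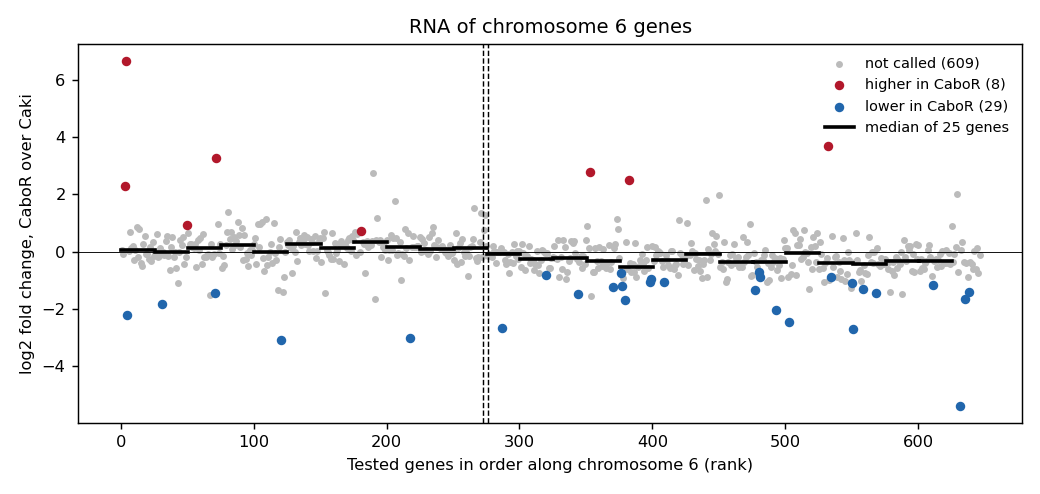
log2 fold change of RNA, CaboR over Caki, for the 646 tested chromosome 6 genes in chromosome order, with medians of 25-gene windows as bars and the edges of the blocks as dashed lines. Medians of windows wholly below the split lie between -0.01 and 0.33, and of those wholly at or above it between -0.55 and -0.06.

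A list of matrix and membrane genes of the long arm held 6 of the 24 falls. Of its 16 tested genes, 6 fell (COL12A1, LAMA4, MARCKS, GJA1, VNN2, THBS2), 1 rose (VNN1) and 9 did not pass. In the block 6.49% fell and 0.81% rose, and over all genes tested 3.41% fell and 2.96% rose. The list's median log2 fold change was -0.80. The list was drawn up with earlier results of these data known, so nothing is read from its share. GJA1, which encodes the main connexin of many epithelia, had 33.2 and 28.2 library-scaled counts (CPM) in CaboR, against 168 and 174 CPM in Caki. Its groups stood far apart, with a log2 fold change of -2.47 ± 0.16 (SE, edgeR adjusted p = 0.0024).
COL12A1, a fibril-associated collagen chain, had 8.02 and 8.23 CPM in CaboR and 28.7 and 23.8 CPM in Caki, a log2 fold change of -1.69 ± 0.20 (edgeR adjusted p = 0.013). THBS2, a matrix glycoprotein, had 75.5 and 65.6 CPM in CaboR and 193 and 186 CPM in Caki (edgeR adjusted p = 0.0092). It is named after its values were seen, as are LAMA4, a laminin chain of vessel and muscle basement membranes, and MARCKS, a protein kinase C substrate at the plasma membrane. LAMA4 had 72.7 and 73.0 CPM in CaboR and 118 and 121 CPM in Caki, and MARCKS had 104 and 98.9 CPM in CaboR and 198 and 179 CPM in Caki. The call for COL12A1 ended with limma on TPM (adjusted p = 0.058 with a pseudocount of 1), and those for LAMA4 and MARCKS without either Caki library. The MARCKS call also ended with limma on log2(TPM + 0.1).

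The vanin genes VNN1 and VNN2, with VNN3 between them among the tested genes, moved in opposite directions. Vanins are membrane-anchored pantetheinases, which release cysteamine from pantetheine. VNN1 had 58.9 and 70.8 CPM in CaboR and 4.58 and 5.43 CPM in Caki, a log2 fold change of 3.69 ± 0.21 (SE, edgeR adjusted p = 0.0020). VNN2, named after its values were seen, had 21.7 and 17.7 CPM in CaboR and 35.1 and 38.9 CPM in Caki (log2 fold change -0.91 ± 0.18, edgeR adjusted p = 0.044). The libraries of the lines did not overlap for either gene, and the VNN2 call ended without either Caki library and in 4 other alternatives. VNN3 had 2.72 and 2.02 CPM in CaboR and 4.38 and 5.04 CPM in Caki, a log2 fold change of -0.98 ± 0.31 that did not pass (edgeR adjusted p = 0.117).

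Among transcription factor and signalling genes of the long arm, 3 of 13 tested fell, 0 rose and 10 did not pass, with a median log2 fold change of -0.80. FYN, a Src-family kinase, had 7.89 and 5.90 CPM in CaboR and 19.4 and 15.8 CPM in Caki, a log2 fold change of -1.35 ± 0.24 (edgeR adjusted p = 0.034). PLAGL1, an imprinted zinc finger factor, had 13.4 and 12.9 CPM in CaboR and 36.7 and 36.2 CPM in Caki, a log2 fold change of -1.47 ± 0.16 (edgeR adjusted p = 0.011). CITED2, a transcriptional coregulator that binds the coactivators CBP and p300 and was named after its values were seen, had 154 and 99.1 CPM in CaboR and 320 and 312 CPM in Caki. Both CaboR libraries lay below both Caki libraries in 9 of the 13, beside 52.7% of the block and 29.7% of all genes tested, and 3.41% of all genes tested fell. The FYN call ended without Caki replicate 1 and that of CITED2 with limma on TPM (adjusted p up to 0.062).

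The metabolic and transport genes of the long arm had a median near 0. Of 12 tested, 1 fell and 0 rose, beside 3.41% lower and 2.96% higher over all genes tested. Their median log2 fold change was -0.01. The fall was PDE10A, a phosphodiesterase that breaks down cyclic AMP and cyclic GMP. It had 0.776 and 0.0777 CPM in CaboR and 18.7 and 20.1 CPM in Caki. Its log2 fold change of -5.39 ± 0.56 (SE, edgeR adjusted p = 0.0092) was the largest fall of the chromosome among the genes tested. The size of the PDE10A fall is uncertain, since both CaboR values were low and differed from each other. The log2 fold change was -7.77 without CaboR replicate 1 and -4.63 without CaboR replicate 2. Its CpG-rich promoter is printed above, and no peak was assigned to it.

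Other large falls at or above the split were in genes outside these lists. KIAA1244 had 2.78 and 2.64 CPM in CaboR and 18.6 and 17.4 CPM in Caki (edgeR adjusted p = 0.0052), a call that ended with limma on TPM (adjusted p = 0.051). C6orf132 had 2.20 and 1.86 CPM in CaboR and 14.7 and 11.5 CPM in Caki (edgeR adjusted p = 0.0092). RNASET2, a lysosomal ribonuclease, had 60.7 and 121 CPM in CaboR and 294 and 284 CPM in Caki. Its CaboR libraries differed from each other, and both lay below both Caki libraries (edgeR adjusted p = 0.039).
TRAM2, a membrane protein of the endoplasmic reticulum translocon, had 31.2 and 24.7 CPM in CaboR and 79.5 and 77.4 CPM in Caki, a log2 fold change of -1.49 ± 0.18 (edgeR adjusted p = 0.013). VEGFA had 71.2 and 76.4 CPM in CaboR and 129 and 131 CPM in Caki, a log2 fold change of -0.82 ± 0.14 (edgeR adjusted p = 0.029). It was the single called gene among 15 tested of a short-arm list around and above the split, whose median was -0.22. Of these 15, 14 lay at or above the split and NFYA between the blocks. Over all genes tested 3.41% fell and 2.96% rose. The VEGFA call ended without either Caki library and with limma on log2(TPM + 0.1) (adjusted p = 0.055). EEF1A1, a translation elongation factor named after its values were seen, had 8264 and 8781 CPM in CaboR and 14508 and 14240 CPM in Caki. It has many near-identical processed copies in the genome, so its count is uncertain. Its call ended without either Caki library and with a filter at mean log2 CPM of 2.

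The other rises at or above the split were FILIP1 and TINAG. FILIP1, a filamin-binding protein, had 42.3 and 30.2 CPM in CaboR and 5.26 and 7.66 CPM in Caki, a log2 fold change of 2.49 ± 0.28 (edgeR adjusted p = 0.011). TINAG, a tubular basement membrane protein of the kidney named after its values were seen, had 4.07 and 3.42 CPM in CaboR and 0.682 and 0.388 CPM in Caki (log2 fold change 2.79 ± 0.44, edgeR adjusted p = 0.024). Both rose within a block whose genes were mostly lower, and the TINAG call ended without Caki replicate 2.

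**Figure D5:**
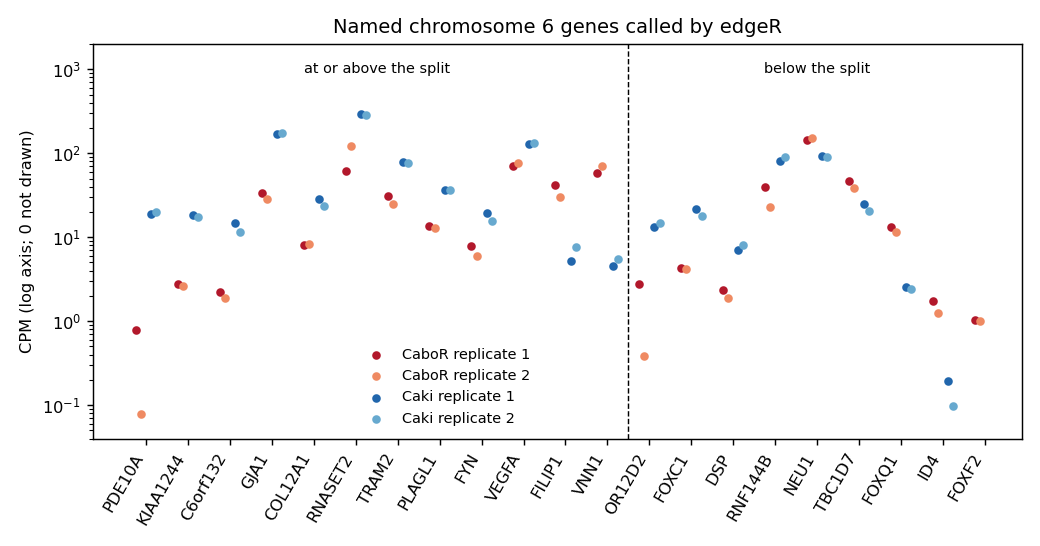
CPM (log axis) of the named called genes of chromosome 6 in each RNA library, CaboR replicates left of Caki replicates, with genes at or above the split on the left and those below it on the right. FOXF2 was at 0 counts in Caki and has no Caki points. The libraries of the 2 lines do not overlap for any gene shown, which the naming rule required of the largest rises and falls.

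Below the split the called genes included 3 forkhead genes at the tip of the short arm, which went both ways. FOXQ1, FOXF2 and FOXC1, whose promoters are printed above, follow one another among the tested genes. FOXQ1 had 13.1 and 11.4 CPM in CaboR and 2.53 and 2.42 CPM in Caki, a log2 fold change of 2.30 ± 0.25 (SE, edgeR adjusted p = 0.011). FOXC1 had 4.33 and 4.19 CPM in CaboR and 21.5 and 17.9 CPM in Caki, a log2 fold change of -2.21 ± 0.22 (edgeR adjusted p = 0.0089). FOXF2 had 29 counts in the CaboR pair and 0 in Caki, at least 7.02-fold higher against a floor of 3 counts over the Caki pair (edgeR adjusted p = 0.044). Its call ended without either Caki library and without a filter on low counts (adjusted p = 0.061). All of these genes encode forkhead transcription factors used in development, and the direction differed between neighbours.

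In the list of distal short-arm transcription factors, 3 of 12 tested genes rose (FOXQ1, FOXF2, ID4), FOXC1 fell and 8 did not pass. Over all genes tested 2.96% rose and 3.41% fell. ID4, a helix-loop-helix inhibitor of transcription factors, had 43 counts in CaboR and 3 in Caki, a ratio of 10.4 with a 95% counting interval of 3.33 to 52.5. The list's median log2 fold change was -0.31, and both CaboR libraries lay below both Caki libraries in 7 of 12 genes and above in 3, beside 19.5% and 39.7% in the block and 29.7% and 30.9% over all genes tested. The list thus lay on the opposite side of 0 from the median of its block. The ID4 call ended without either Caki library, with DESeq2 (adjusted p = 0.060) and without a filter (adjusted p = 0.058).

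Other genes below the split included junction, lysosomal and ubiquitin genes. DSP, the desmosomal plaque protein desmoplakin, had 2.33 and 1.86 CPM in CaboR and 7.01 and 8.14 CPM in Caki (log2 fold change -1.84 ± 0.29, edgeR adjusted p = 0.024). It was the single call among 8 tested junction, serpin and matrix genes, beside 3.41% lower and 2.96% higher over all genes tested. RNF144B, a ubiquitin ligase, had 40.1 and 22.8 CPM in CaboR and 80.5 and 90.3 CPM in Caki (edgeR adjusted p = 0.041). NEU1, the lysosomal sialidase, had 144 and 151 CPM in CaboR and 91.9 and 89.3 CPM in Caki (log2 fold change 0.70 ± 0.14, edgeR adjusted p = 0.040). TBC1D7, a subunit of the tuberous sclerosis complex, had 46.7 and 38.9 CPM in CaboR and 24.5 and 20.5 CPM in Caki (edgeR adjusted p = 0.044). The DSP call ended without Caki replicate 2, and those of NEU1 and TBC1D7 without either Caki library. All of these calls and that of RNF144B also ended with limma on TPM at both pseudocounts (adjusted p at a pseudocount of 1 of 0.129 for DSP, 0.065 for NEU1, 0.110 for TBC1D7 and 0.078 for RNF144B). With the stricter filter TBC1D7 had an adjusted p of 0.051.
OR12D2, an olfactory receptor gene of the MHC border, had 2.78 and 0.388 CPM in CaboR and 13.05 and 14.9 CPM in Caki, and B3GALT4, a galactosyltransferase gene named after its values were seen, had 0.129 and 0.233 CPM in CaboR and 1.75 and 1.26 CPM in Caki. The libraries of the lines did not overlap for either gene. The B3GALT4 call (edgeR adjusted p = 0.043) ended in 6 of 11 alternatives. These were DESeq2, no filter on low counts, limma on TPM at both pseudocounts and leaving out either Caki library. The OR12D2 call (edgeR adjusted p = 0.049) ended with library totals (adjusted p = 0.051), with DESeq2 (adjusted p = 0.061), with the stricter filter and with limma on TPM, and that of RNF144B with library totals (adjusted p = 0.051).

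No gene of the 4 MHC lists passed the edgeR test on all 4 libraries, beside 2.96% higher and 3.41% lower over all genes tested. DESeq2 called 1 class II and 2 class III genes. Of 7 tested class I genes 0 passed, with 0 at an unadjusted p under 0.05, and their median log2 fold change was -0.00. HLA-B, a classical class I heavy chain, had 361 and 691 CPM in CaboR and 528 and 525 CPM in Caki. Its CaboR libraries lay on both sides of the Caki libraries (edgeR adjusted p = 0.998). Class I genes are highly alike and variable in sequence, so counts between them are uncertain. Of 4 tested class II genes 0 passed and 1 had an unadjusted p under 0.05, with a median of 0.40. Among them was HLA-DPA1 at 14.8 and 17.9 CPM in CaboR and 17.5 and 16.2 CPM in Caki.
Of 5 antigen-processing genes 0 passed by edgeR or DESeq2 and 1 had an unadjusted p under 0.05, with a median of 0.17. PSMB8, an immunoproteasome subunit, had 80.0 and 115 CPM in CaboR and 65.4 and 66.4 CPM in Caki (edgeR adjusted p = 0.15). Of 8 tested genes in the class III list 0 passed and 2 had an unadjusted p under 0.05, with a median of 0.09. That list includes IER3 and DDR1, which lie among the class I genes in chromosome order. CFB, complement factor B, had 74.5 and 99.1 CPM in CaboR and 147 and 148 CPM in Caki, with an edgeR adjusted p of 0.064 that passed with DESeq2 (adjusted p = 0.012). A p that misses the threshold does not show that these genes were equal between the lines.

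The histone genes of the short-arm cluster and the kinase genes near the split are given beside shares of 2.96% higher and 3.41% lower over all genes tested. Of 7 tested histone genes 0 passed by edgeR or DESeq2 and 0 had an unadjusted p under 0.05, with a median log2 fold change of 0.16. In a list of 11 tested genes around the split, mostly kinase and cell-cycle genes, the median was -0.02. Its single call was the growth factor gene VEGFA, which is also the single call of the short-arm list above.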

How the data were processed

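Each H3K27ac library has 1 list of peaks deposited by the authors, with coordinates and a score. The sources used here do not name the peak caller, say how inputs were used or define the score. Peaks on chromosome 1 reach beyond its GRCh38 length, so coordinates were read as hg19. STAR, RSEM and DESeq2 1.40.2 are named, without roles, per the submitters' processing notes. For 20114 symbols the authors deposited RSEM estimated counts and TPM. Of the estimated counts 3.16% were fractional, and all were rounded. The deposited TPM values served for markers and 2 alternatives.

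Overlapping peaks were merged with Python 3.11.15 and pandas 2.3.3. Genes were kept by filterByExpr (12792), scaled by TMM and tested by quasi-likelihood F tests in edgeR 4.0.16 (R 4.3.3), line as the only term, Benjamini-Hochberg adjustment over all genes. CPM are TMM-scaled. The script was tested on simulated data. Of the tested genes, 12593 matched the RefSeq table (GRCh38.p14), used for chromosome and order only; genes between DAAM2 and FOXP4 were left out of both blocks, whose boundary rests on known gene order since no coordinates were converted. Of the symbols, 26 were date-like, altered by a spreadsheet, and were not named.

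Groups come from sample titles. The regions, split, gene lists and naming rule were chosen with earlier results of these data known. Named genes were the 8 largest rises and falls per block at mean log2 CPM of at least 2 whose lines did not overlap, and up to 2 rises and 2 falls, or the 2 most abundant members, per list. Of the genes this took, 1 is not reported here. Alternatives used DESeq2 1.42.0 and limma 3.58.1, other filters, scalings, thresholds, splits and merging rules, and left out each library. Counting intervals are exact binomial and cover counting error only.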

Additional observations from a re-analysis of the deposited data

How the results depend on the processing

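The median log2 fold change stayed negative at or above the split and positive below it under all alternatives run, including each library left out (-0.41 to -0.27 above and 0.047 to 0.19 below without 1 library). No called gene changed sign. With 1 library left out, its line was judged by its other library alone, a looser rule that raises the region counts. Regions at or above the split then numbered 258 to 1004 lost, 50 to 210 gained and 499 to 823 shared. Below it they numbered 65 to 263 lost, 102 to 291 gained and 426 to 519 shared. The peak ratio ran from 0.47 to 0.69 above and 0.92 to 1.01 below. RNA calls ran from 2 to 25 higher and 13 to 168 lower above, and 1 to 96 higher and 3 to 37 lower below; fewer libraries were fitted there.

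At scores of 5 or more, 141 regions were lost and 14 gained above, and 33 lost and 30 gained below. With cover of 50% of a region, 109 were shared above and 121 below. With the split at the widest gap, 102 were lost below it and the peak ratio below was 0.86. Genes below the split numbered 9 higher and 3 lower with library totals, 3 higher without a filter, 2 and 3 with the stricter filter (mean log2 CPM of 2), 3 and 3 with limma on log2(TPM + 1), and 1 and 3 on log2(TPM + 0.1). The DESeq2 test gave 11 higher below and 43 lower above. Limma gave 13 and 11 lower above with the pseudocounts of 1 and 0.1. At an adjusted p of 0.01, 1 gene was higher and 5 lower above, and 0 higher and 1 lower below. The causes were not tested.

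With the replicate block, 7 genes were higher and 63 lower above, and 19 higher and 9 lower below. Whether the replicate numbers pair the samples is not known. Deviations of the replicates numbered 1 correlated at -0.051 over 12792 genes. The Caki pair differed little, with a chi-square per gene of 1.95, so this correlation could miss a shared replicate effect. Median peak width was 604 bp in CaboR and 674 bp in Caki for replicate 1, and 1041 and 924 bp for replicate 2. A shared batch was not tested.

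Of the 27 genes called above and 10 below, those still tested with 1 library left out kept their sign. Fewer of them passed without either Caki library. Calls kept without a CaboR library are not counted as support, because the spread then came from the Caki pair alone. The chi-square per gene was 1.95 in that pair and 48.4 in the CaboR pair. Some genes that were uncalled and near 0 with all libraries changed sign. HLA-B was at 0.069 with library totals and 0.0017 with the stricter filter. It was at 0.40 without CaboR replicate 1 and -0.55 without CaboR replicate 2, so its direction rested on the CaboR library kept. HLA-DPA1 was at 0.032 with library totals, and at -0.19 to 0.088 with 1 library left out. FOXQ1, FOXC1, VNN1, FILIP1, PDE10A, C6orf132, GJA1, RNASET2, TRAM2 and PLAGL1 passed in all alternatives to the test, the filter, the scaling and the block.

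Read depth of the peak lists is unknown, scores carry no unit, and 2 libraries per line limit every statement.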
